A study of Drosophila melanogaster with 16 samples.

Results

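Clock neurons of the fly brain were compared at 2 times of day, in the light phase at ZT06 and late in the dark phase at ZT22 (zeitgeber time, counted from lights on). The clock neurons were taken by transcript content: a sorted cell was kept when its Clk, per, tim and cwo transcripts summed to at least 4 UMIs (unique molecular identifiers, each standing for 1 captured transcript). This gate kept 3750 of the 8885 cells of 4 libraries, of 23921 cells in all 10 single-cell libraries of the series. The kept cells numbered 459 of 1078 in the June ZT06 library, 1320 of 3753 in the August ZT06 library, 1093 of 2123 in the June ZT22 library and 878 of 1931 in the August ZT22 library. The June libraries were collected on successive days and the August libraries on the same day, so that only the August pair shared a date.

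All 4 libraries came from adult Drosophila melanogaster brains in which Clk856-GAL4 together with R11B03-AD and VT002670-DBD drove UAS-EGFP, in flies of both sexes in equal number held in light-dark cycles. The combination was built to label nearly all clock neurons, and the cells were sorted for fluorescence before droplet capture. ZT06 and ZT22 therefore differed in the hour of collection and shared genotype and lighting regime. In the gated cells the EGFP row of the table was at 0 UMIs in all 4 libraries. A GFP row was at 0, 5, 0 and 6 UMIs in the June ZT06, August ZT06, June ZT22 and August ZT22 libraries. With so few UMIs the sorted label could not be read from the transcripts. The gated cells carried 4300572, 10504620, 9213896 and 7805088 UMIs in the June ZT06, August ZT06, June ZT22 and August ZT22 libraries, with a median of 6518 to 8104 UMIs per cell. In every sentence that follows, library values stand in the order June ZT06, August ZT06, June ZT22, August ZT22, and levels are UMIs per 10000 UMIs of the summed cells (TP10K).

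The fly clock runs on a transcriptional loop. CLOCK and CYCLE activate per and tim, whose proteins return to the nucleus and block that activation. In a second loop, the activators drive vri and Pdp1, which encode a repressor and an activator acting on Clk, and cwo, which encodes a further repressor of the same targets. The neurons that hold this clock fall into lateral and dorsal groups, some of which release peptides such as PDF, the best known signal between them.

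The 4 gate genes chose the cells, and their levels are given as a description only. The level of tim was 4.42, 5.09, 7.89 and 7.74 TP10K, and that of per was 0.888, 0.880, 1.39 and 1.30 TP10K. Clk was at 2.86, 2.93, 2.63 and 2.50 TP10K and cwo at 4.70, 4.78, 3.94 and 3.81 TP10K. Thus tim and per were higher and Clk and cwo lower in both ZT22 libraries. The gate passed 42.6, 35.2, 51.5 and 45.5% of the cells. As its genes differed between the hours, it may have admitted different cells at each. Its part in the changes below was not tested beyond the other gates given at the end. None of the 4 gate genes is counted in what follows.

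Neuron genes were used to ask which gated cells were neurons, and they cannot show that a neuron is a clock neuron. That identity rested on the sort and the gate alone. Only 4 or 5 gate UMIs were found in 24.8, 27.7, 20.04 and 22.9% of the gated cells. Of the 3750, 3160 cells reached 10 TP10K for the sum of 4 neuron genes (elav, nSyb, Syt1 and brp), 392, 1106, 942 and 720 per library. The remaining 590 cells, 14.6, 16.2, 13.8 and 17.995% of the gated cells, did not. In their sum nSyb, a synaptic vesicle protein of all neurons, was at 0.089, 0.044, 0.058 and 0.067 TP10K, against 22.4 to 23.1 TP10K in the cells that passed. The cells that did not pass carried Pdh at 166 to 233 TP10K, where the neurons carried 0.283 to 1.17 TP10K, and the glutamine synthetase Gs2 at 11.7 to 19.5 TP10K. They lay close to the gate, with a median of 5 or 6 gate UMIs, while the cells with neuron markers had medians of 10, 9, 12 and 12. These cells were left without a cell type name. The split was made after the data were seen. Levels, changes and counts of listed genes are for the cells with neuron markers unless stated otherwise.

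Over all gated cells, 18 of 8854 genes tested differed between ZT22 and ZT06 (0.203%, edgeR quasi-likelihood test, adjusted p under 0.05), 15 of them higher (0.169%) and 3 lower (0.0339%) at ZT22. At an unadjusted p under 0.05 there were 1227 genes, 13.9%. The groups hold 2 libraries each, and the count leaned on both ZT06 libraries: it was 6 without the June ZT06 library, 4 without the August ZT06 library, 22 without the June ZT22 library and 20 without the August ZT22 library. Within each group the libraries are separate collections, so p-values measure the spread between collections.

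Of the 18 genes, 7 belonged to the cells without neuron markers. CG5945, Obp57a (an odorant-binding protein), CG31199, Drsl4 (of the drosomycin family of antimicrobial peptides), CG9812, BomT3 (a bomanin, an immune peptide) and CG31313 had 83.2 to 97.8% of their gated UMIs there. Their UMIs were packed into few cells. CG5945 rose from 5 UMIs in the 1779 gated cells of ZT06 to 2055 UMIs in the 1971 of ZT22, and 4 cells held most of the ZT22 UMIs. For 6 of the 7 genes together (without CG31313), 23 cells held 5354 of 5487 gated UMIs, and 22 of these cells lacked neuron markers. By library these were 0, 1, 11 and 11 cells. Their levels therefore differed by the presence of a small group of cells in both ZT22 libraries, and the origin of that group was not tested.

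The other 11 genes were also called when only cells with neuron markers were summed: nrv1, CG32369, dnd, TrissinR, CG14757, Pdp1, sNPF, HDAC4, nvy, JhI-21 and Ldh. Every other gene called among the neurons failed the test over all gated cells. Those named below with changes of at least 2-fold in the neurons had adjusted p-values there from 0.056 (Proc) to 0.19 (shg), and each had the same direction in both sums. Restricting the sum in this way gave 303 of 8013 genes (3.78%), 212 higher at ZT22 (2.65%) and 91 lower (1.14%), with 37 and 36 of them changed at least 2-fold. Leaving out 1 library at a time gave 202 to 427 calls. The gated cells without neuron markers, fitted on their own, gave 0 calls among 6989 genes (0%), with 465 genes (6.65%) at an unadjusted p under 0.05. The test of the difference between gated cells with and without neuron markers also called 0 of 8854 genes, with 543 (6.13%) at an unadjusted p under 0.05, so the larger number in the neurons is not a shown difference between the classes. In a sum over cells, fewer expressing cells and less RNA per cell cannot be told apart.

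**Figure D1:**
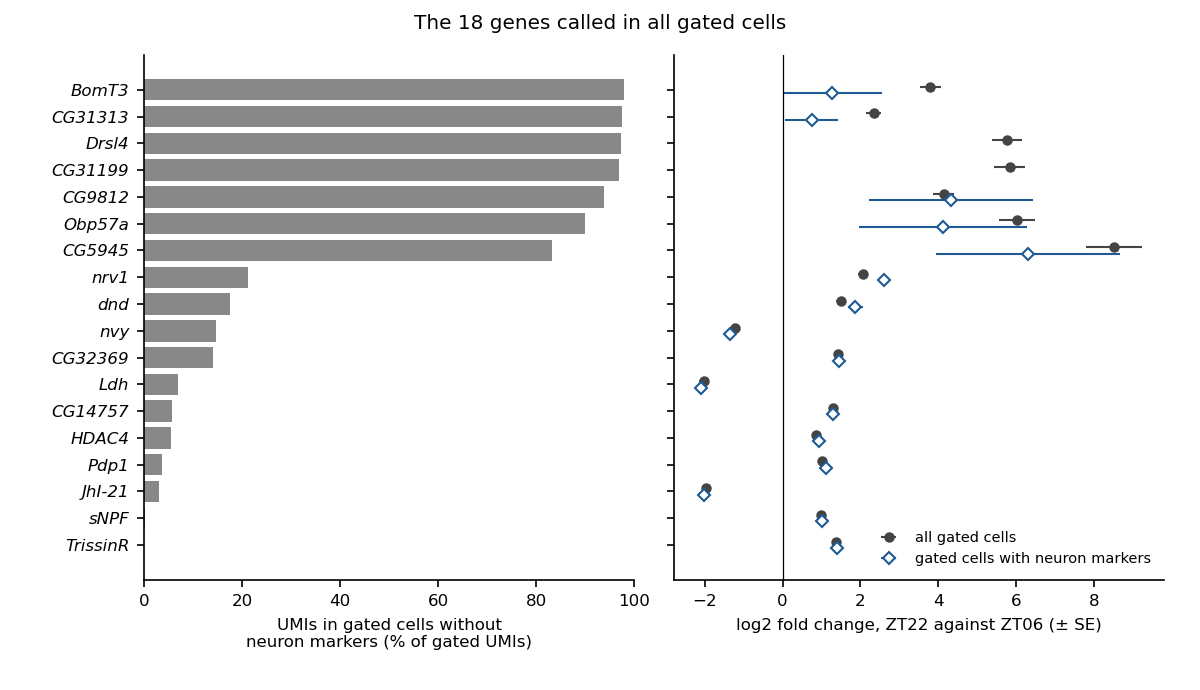
The 18 genes called over all gated cells, ordered by the share of their gated UMIs that lay in cells without neuron markers (left, percent), with the log2 fold change of ZT22 against ZT06 and its SE (right) over all gated cells (filled circles) and over gated cells with neuron markers (open diamonds). The 7 genes with 83.2 to 97.8% of UMIs in cells without neuron markers have wide errors or no value among the neurons, where 2 of them were not tested, while the other 11 keep their direction, with nrv1 at 2.06 over all gated cells and 2.62 among the neurons.

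The clock gene Pdp1 rose about 2-fold. Its level in cells with neuron markers was 52.8, 52.5, 110.5 and 110.0 TP10K. The 2 ZT06 libraries agreed closely, as did the 2 ZT22 libraries, and the groups were far apart (log2 fold change 1.11 ± 0.07 SE, adjusted p = 0.0029). Over all gated cells the change was 1.02 ± 0.08 (adjusted p = 0.048), and the August pair alone gave 1.07 in the neurons. With June and August as blocks the neuron value was 1.11 with an adjusted p of 0.061.

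The partner gene vri, whose product represses the same promoter that PDP1 activates, did not pass the test. Its levels were 4.28, 4.39, 4.68 and 4.29 TP10K, and the groups overlapped (0.09 ± 0.07, adjusted p = 0.59). The photoreceptor cry, at 1.68, 2.87, 2.14 and 2.52 TP10K, and cyc, at 0.243, 0.176, 0.273 and 0.258 TP10K, did not pass either (adjusted p = 0.93 and 0.26). Pdp1 was thus the only 1 of the 5 listed clock genes outside the gate to be called (3.78% of all genes were), a list whose median change was 0.09 against 0.00 over all genes. Among 17 tested kinases, phosphatases and turnover factors of clock proteins none was called, with a median of -0.02, and among 8 genes of light input none was called either.

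CG32369, the gene that follows Pdp1 on chromosome 3L, rose as well. Pdp1 lies at 3L:7811458-7867369 and CG32369 at 3L:7777105-7809825, both on the minus strand of the dm6 assembly, with 1632 bases between them. CG32369 was at 2.91, 2.83, 7.38 and 7.83 TP10K (1.45 ± 0.07, adjusted p = 0.0016). Both ZT22 libraries were more than 2-fold above both ZT06 libraries. The neighbours did not share a profile over the other libraries: at ZT10 and ZT14 CG32369 was at 0.966 to 1.51 TP10K, its lowest levels, while Pdp1 was at 72.1 to 170.3 TP10K.

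**Figure D2:**
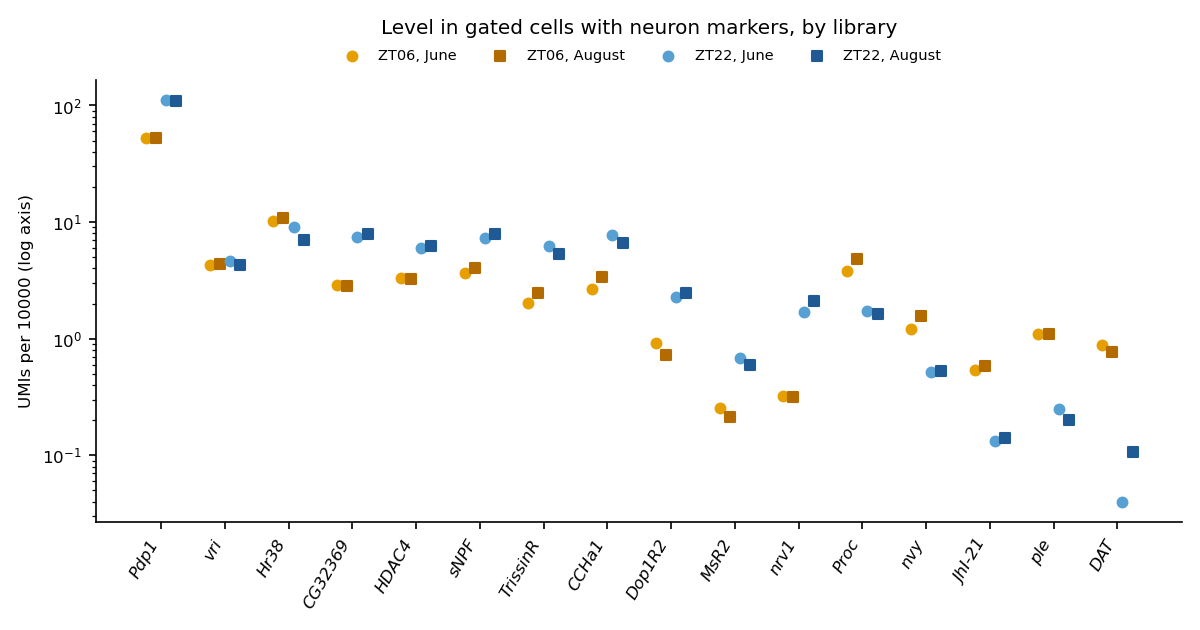
Level of 16 named genes in gated cells with neuron markers, in UMIs per 10000 on a log axis, with 1 point per library (circles June, squares August; orange and brown ZT06, light and dark blue ZT22). Pdp1 to nrv1 show blue points above brown ones except for vri and Hr38, where they lie close together, and Proc to DAT show the reverse order.

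Among the remaining genes that rose in both sums, nrv1, encoding a beta subunit of the sodium-potassium pump, had the largest fold. It was at 0.324, 0.315, 1.70 and 2.10 TP10K in cells with neuron markers (2.62 ± 0.14, adjusted p = 0.0016), from 2L:6778555-6786861. The ZT22 libraries were more than 5-fold above those of ZT06. The levels were uneven over the marker classes described below. In Pdf cells nrv1 was at 1.22, 0.871, 9.03 and 9.42 TP10K. In neurons with no class marker it was at 0.243, 0.215, 0.442 and 0.769 TP10K. HDAC4, a class IIa histone deacetylase, was at 3.35, 3.26, 6.04 and 6.18 TP10K (0.93 ± 0.07, adjusted p = 0.0061). CG14757 was at 0.618, 0.586, 1.46 and 1.40 TP10K (1.29 ± 0.09, adjusted p = 0.005). It was the only gene still called among the neurons when all 10 libraries were fitted by time point alone (adjusted p = 0.021). With collection date as a block as well, the 10 libraries gave 84 calls. The low-level gene dnd was at 0.107, 0.078, 0.348 and 0.286 TP10K. HDAC4, dnd and the falling genes JhI-21 and Ldh are named because they were among the 11 called in both sums, after their values were seen.

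Of the 3 genes that fell in both sums, nvy, encodes a nuclear cofactor of the ETO family. Its levels were 1.21, 1.55, 0.520 and 0.529 TP10K (-1.36 ± 0.13, adjusted p = 0.01). JhI-21, an amino acid transporter, was at 0.540, 0.584, 0.131 and 0.139 TP10K (-2.02 ± 0.10, adjusted p = 0.0016). Ldh, lactate dehydrogenase, was at 0.268, 0.286, 0.064 and 0.063 TP10K (-2.08 ± 0.14, adjusted p = 0.005). In each of these both ZT22 libraries were below both ZT06 libraries, as in 29.1% of all genes tested.

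Neuropeptide genes changed in both directions. Of 28 tested in cells with neuron markers, 3 rose and 2 fell (2.65% and 1.14% of all genes), and the list's median was 0.04. The short neuropeptide F gene sNPF was at 3.68, 4.001, 7.31 and 7.85 TP10K (1.02 ± 0.08, adjusted p = 0.0062), from 2L:20027915-20056373. CCHa1, the CCHamide-1 precursor of a few dorsal clock neurons, was at 2.67, 3.37, 7.70 and 6.66 TP10K (1.29 ± 0.12, adjusted p = 0.01). CNMa, another peptide of dorsal clock neurons, was at 0.243, 0.093, 1.61 and 2.73 TP10K (3.83 ± 0.47, adjusted p = 0.016). All 3 had both ZT22 libraries above both ZT06 libraries, a pattern shared by 19.9% of all genes tested. Over all gated cells CNMa did not pass (3.76, adjusted p = 0.082). CNMa UMIs were found in 25 of 1498 neurons at ZT06 and 79 of 1662 at ZT22. At ZT06 a single neuron held 86 of the 172 UMIs.

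Proctolin and neuropeptide F were the peptides that fell. Proc was at 3.78, 4.83, 1.71 and 1.62 TP10K (-1.33 ± 0.12, adjusted p = 0.0095). NPF was at 19.7, 5.14, 0.799 and 0.249 TP10K (-4.52 ± 0.78, adjusted p = 0.035), and did not pass over all gated cells (-4.56, adjusted p = 0.14). A single cell with 6241 UMIs carried most of the June ZT06 level, which was 3.04 TP10K without it. Neurons with at least 20 NPF UMIs numbered 22, 61, 5 and 1.

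Among receptors for peptides, 8 of 38 tested were higher at ZT22 and 1 was lower (2.65% and 1.14% of all genes), with a median of 0.18, and 17 had both ZT22 libraries above both ZT06 libraries against 19.9% of all genes. TrissinR, the receptor of the peptide trissin, was also called over all gated cells. It was at 2.03, 2.46, 6.21 and 5.37 TP10K (1.41 ± 0.11, adjusted p = 0.0062), from 2L:5824004-5856767. MsR2, a myosuppressin receptor, was at 0.257, 0.213, 0.677 and 0.597 TP10K (1.503 ± 0.12, adjusted p = 0.0062). CCHa1-R, a receptor of CCHamide-1, was at 0.102, 0.062, 0.254 and 0.229 TP10K (1.68 ± 0.23, adjusted p = 0.018). By the marker classes described below, the hours differed most in AstA cells, at 0.207, 0.145, 1.16 and 1.25 TP10K. In neurons with no class marker CCHa1-R was at 0.046, 0.033, 0.050 and 0.057 TP10K, and in CCHa1 cells at 0.

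The other 5 receptors that rose changed by less than 2-fold. AstC-R2, for allatostatin C, was at 1.83, 2.003, 3.49 and 2.94 TP10K, and CNMaR, for CNMamide, at 0.760, 0.729, 1.102 and 1.16 TP10K. The corazonin receptor CrzR, the second myosuppressin receptor MsR1 and CCHa2-R had log2 changes of 0.88, 0.56 and 0.67. Lgr1, of the glycoprotein hormone receptor family, was the one that fell, with levels of 0.115, 0.178, 0.059 and 0.043 TP10K (-1.51 ± 0.28, adjusted p = 0.043). Summed over the list, receptor transcripts came to 18.7, 18.1, 26.0 and 25.3 TP10K in the neurons. With June and August as blocks 1 receptor rose and none fell, and with all 10 libraries fitted by time point alone none was called. With collection date as a block as well, the 10 libraries gave 3 that rose and 1 that fell.

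Transmitter receptors and synthesis genes gave fewer calls. Of 40 receptors for amines, acetylcholine, glutamate and GABA, 3 rose and 1 fell (2.65% and 1.14% of all genes), with a median of -0.03. Dop1R2, a dopamine receptor, had the largest change, at 0.918, 0.729, 2.26 and 2.44 TP10K (1.56 ± 0.13, adjusted p = 0.0072). The glutamate receptor subunit GluRIA and the octopamine-tyramine receptor Oct-TyrR rose by 0.46 and 0.73, and Octbeta1R fell by 0.73 on the log2 scale. Of 21 genes of transmitter handling and release, Tbh, which makes octopamine, rose from 3.56 and 3.94 to 6.28 and 7.72 TP10K, and ple fell.

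The dopamine genes ple and DAT rested on a handful of cells. Tyrosine hydroxylase, ple, was at 1.094, 1.098, 0.249 and 0.201 TP10K in cells with neuron markers (-2.24 ± 0.12, adjusted p = 0.0016). Over all gated cells its change was -1.21 ± 0.25 and did not pass (adjusted p = 0.14). The dopamine transporter DAT was at 0.888, 0.768, 0.040 and 0.107 TP10K (-3.49 ± 0.35, adjusted p = 0.011). For each gene, 3 of the 1498 neurons of ZT06 held at least 50% of the UMIs at that time, while any ple UMI was found in 100 of these 1498 neurons and in 120 of the 1662 neurons of ZT22. The libraries at each time agreed, yet the sums followed a few cells.

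The other genes with at least 2-fold changes had varied functions. TrpA1, a heat-sensitive channel, was at 0.214, 0.083, 0.617 and 0.4999 TP10K (2.10 ± 0.36, adjusted p = 0.035), and was 1 of 3 channel genes that rose among 31 (2.65% of all genes). The other 2 were unc80, of the sodium leak channel complex, with 0.51, and Slob, a binding partner of the Slowpoke potassium channel, with 0.77. The pigmentation gene y was at 0.270, 0.184, 0.867 and 0.546 TP10K, CG7191 at 0.351, 0.761, 1.93 and 1.61 TP10K, and CG17777 at 7.13, 6.23, 17.4 and 14.3 TP10K. The E-cadherin gene shg was at 0.110, 0.144, 0.226 and 0.288 TP10K and the only 1 of 13 plasticity genes called, where 3.78% of all genes were. The Rhomboid-type protease ru was at 0.046, 0.082, 0.203 and 0.156 TP10K, and with rho, another of the family, made up the 2 of 18 EGF receptor pathway genes that rose, against 2.65% of all genes.

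Among genes that fell, CG15082 was at 8.19, 10.6, 1.11 and 0.509 TP10K (-3.50 ± 0.35, adjusted p = 0.01), with at least 50% of the ZT06 UMIs in 10 cells. CG31705 was at 1.09, 1.67, 0.282 and 0.285 TP10K, a change of -2.25 that was -1.36 over all gated cells (adjusted p = 0.094). In Pdf cells, a class described below, it was at 22.8, 16.1, 1.04 and 2.23 TP10K. In neurons with no class marker it was at 0.511, 0.618, 0.269 and 0.210 TP10K. CG13054 was at 5.88, 7.39, 2.91 and 2.60 TP10K. The BMP-binding protein gene cv-2 was at 1.04, 1.07, 0.467 and 0.450 TP10K (-1.16 ± 0.09, adjusted p = 0.0062). The regulatory subunit gene Pka-R1, at 9.92, 8.50, 6.29 and 6.30 TP10K, and the adenylyl cyclase Ac76E fell among 16 cAMP and PKA genes (1.14% of all genes fell), a list with a median of -0.15. The chaperones Gp93, Hsc70-4 and Hsc70-3 fell by 0.54, 0.52 and 0.47 on the log2 scale among 24 heat shock proteins and co-chaperones (again against 1.14%), whose median was 0.12.

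Of 10 genes that follow neuronal firing, 1 was called over all neurons, where 3.78% of all genes were called and 1.14% were called lower. Hr38, which firing induces, was at 10.2, 10.8, 9.16 and 6.95 TP10K (-0.35 ± 0.12, adjusted p = 0.21). The other markers of activity, sr, CG14186 and CG17778, had log2 changes of 0.07, -0.07 and -0.27 with adjusted p-values of 0.83, 0.80 and 0.43. CrebA was the one that passed, at 1.64, 1.80, 1.19 and 1.20 TP10K (-0.49 ± 0.09, adjusted p = 0.043), and 9 of the 10 changes were negative. Over all genes tested, 3959 of 8013 changes were positive. In neurons with at least 20 UMIs of AstA, a class described below, 3 of these genes were lower in both ZT22 libraries and passed the test. In that class 9.04% of all genes were called. There Hr38 was at 14.3, 13.2, 8.03 and 6.90 TP10K (-0.97 ± 0.10, adjusted p = 1.8e-07). CG14186 was at 2.94, 2.87, 1.90 and 1.24 TP10K (-0.96 ± 0.16, adjusted p = 0.00029). The level of sr was 7.78, 9.92, 6.75 and 5.77 TP10K (-0.59 ± 0.11, adjusted p = 0.00078). Other classes differed for Hr38. The hours overlapped in gl cells (4.03, 4.89, 4.81 and 5.02 TP10K) and Pdf cells (1.52, 4.62, 3.39 and 4.24 TP10K). NPF cells, few at ZT22, were higher then (10.1, 8.14, 14.01 and 12.9 TP10K). CCHa1 cells (6.25, 10.7, 3.23 and 3.24 TP10K) and neurons with no class marker (11.4, 13.3, 11.1 and 7.83 TP10K) were lower at ZT22. Over all neurons no gene was called among 18 nuclear receptors, 6 glial markers, 6 photoreceptor markers or 4 heat shock genes that respond to dissociation. The glial markers summed to 6.37, 5.18, 2.98 and 4.86 TP10K in the neurons, with repo at or under 0.013 TP10K.

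**Figure D3:**
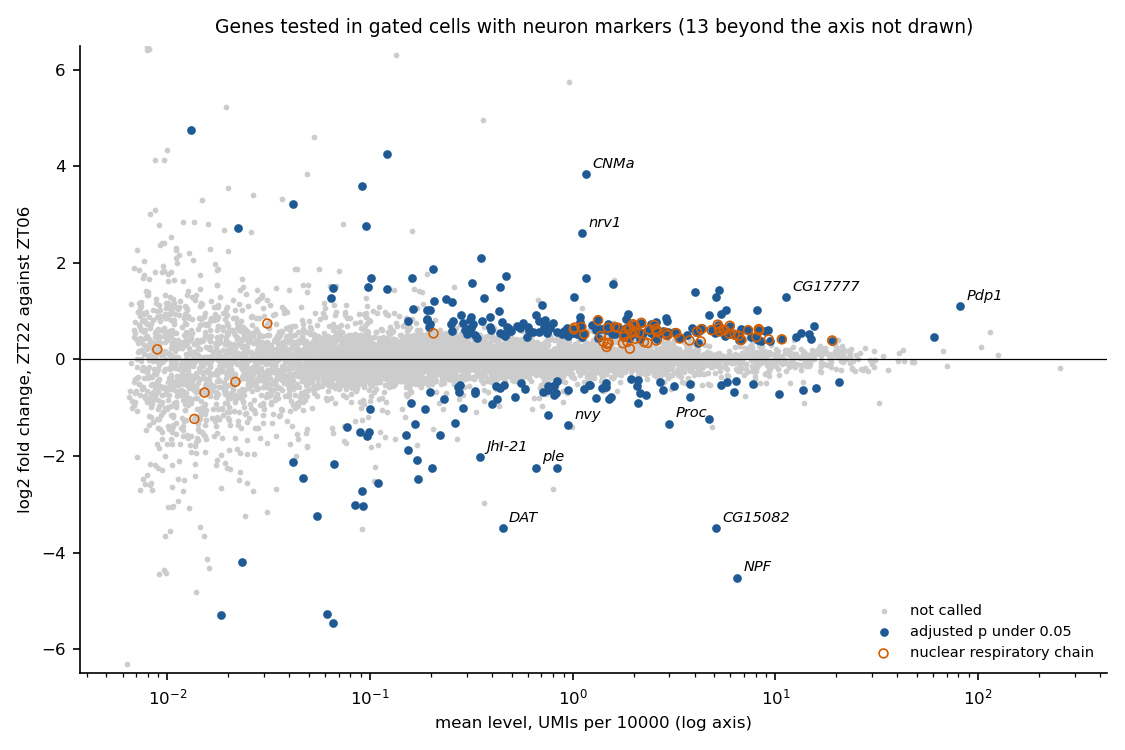
Log2 fold change of ZT22 against ZT06 for each gene tested in gated cells with neuron markers, plotted against its mean level in UMIs per 10000 (log axis). Called genes are blue, the rest grey, nuclear respiratory chain genes are ringed in orange, and 13 genes lie beyond the vertical axis. The ringed genes form a band above 0, and Pdp1 stands at the right with a level near 100 TP10K.

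Of the lists tested, the one with the most calls was the nuclear-encoded respiratory chain, the subunits of the complexes that pass electrons to oxygen and make ATP in mitochondria. Of 67 tested in cells with neuron markers, 44 rose (65.7%, against 2.65% of all genes) and none fell, with a median log2 change of 0.55. In 61 of the 67 both ZT22 libraries were above both ZT06 libraries, against 19.9% of all genes. Each complex had calls: 19 of 33 in complex I, 2 of 5 in complex II, 7 of 9 in complex III, 6 of 8 in complex IV and 10 of 12 in complex V. The summed level was 182, 198, 274 and 259 TP10K. Among single genes ND-ASHI of complex I was at 0.993, 0.977, 1.75 and 1.61 TP10K (0.81 ± 0.09, adjusted p = 0.013), COX5A of complex IV at 4.13, 4.75, 7.01 and 6.23 TP10K (0.62 ± 0.09, adjusted p = 0.024), and ATPsynC of the ATP synthase at 16.2, 17.3, 22.4 and 20.4 TP10K (0.39 ± 0.07, adjusted p = 0.038).

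The median was similar in the gated cells outside the neurons, and the calls depended on the fit. Over all gated cells the list's median was 0.54, with 61 of 67 genes higher in both ZT22 libraries (20.1% of all genes), and none was called. In the gated cells without neuron markers the median was 0.51, with 61 of 62 changes positive and none called. In neurons with no gate UMI it was 0.11, with 56 of 62 changes positive and none called. The test of the difference between gated neurons and these neurons called 0 of 69 genes of the list. The median difference was 0.44, with 67 positive. In cells with neuron markers 0 genes of the list were called with June and August as blocks (median 0.55), with all 10 libraries (0.55) or with all 10 libraries and collection date as a block (0.45). Without the June ZT06 library 18 were called, and without any other single library 41 to 44. The summed level in the libraries of the other hours was 186 to 253 TP10K, highest at ZT18. The 13 genes of the mitochondrial genome tested had a median of -0.14 with none called, and 86 cytoplasmic ribosomal protein genes a median of 0.12 with none called. Of these 86, 80 had positive changes. In 45 of them (52.3%) both ZT22 libraries were above both ZT06 libraries, against 19.9% of all genes.

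**Figure D4:**
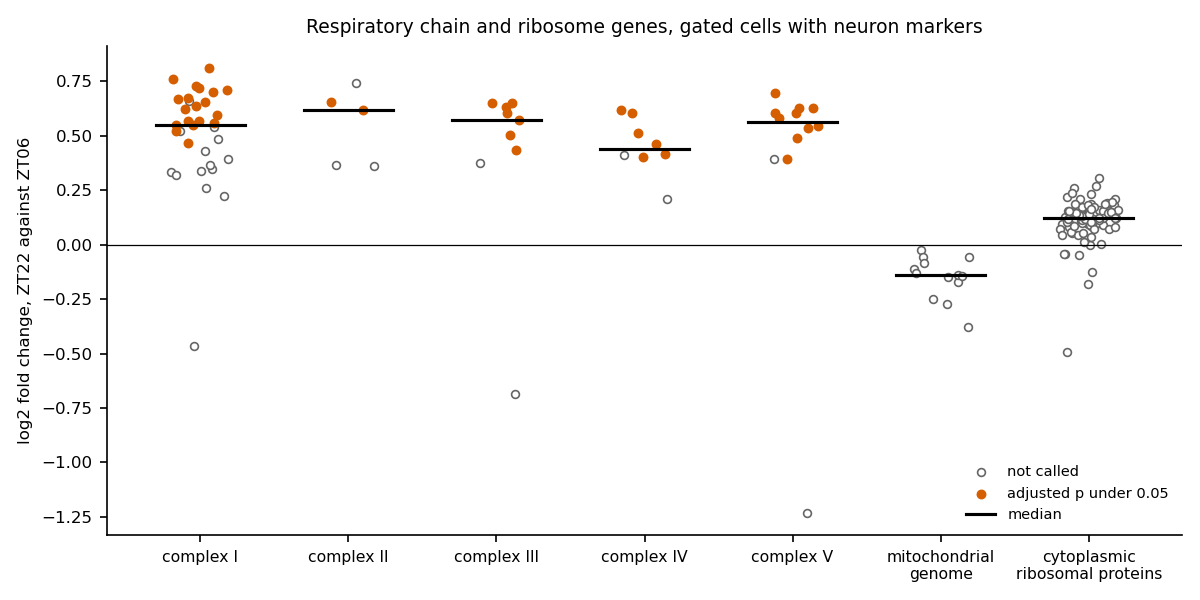
Log2 fold change of ZT22 against ZT06 in gated cells with neuron markers for the nuclear genes of respiratory complexes I to V, the mitochondrial genome and the cytoplasmic ribosomal proteins, with 1 point per gene, called genes filled and the median as a black line. The medians of the 5 complexes lie between 0.44 and 0.62, that of the mitochondrial genome at -0.14 and that of the ribosomal proteins at 0.12.

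The neurons were then divided by marker transcripts into cells with at least 20 UMIs of Pdf, AstA, CCHa1 or NPF, in that order, cells with at least 1 UMI of gl, the Glass transcription factor of a dorsal group, and the rest. These classes were drawn after the data were seen, and their own markers are no finding. Cells with gl were 12.8, 12.5, 8.49 and 9.86% of the neurons, and the level of gl itself over all neurons fell, from 0.575 and 0.490 to 0.255 and 0.285 TP10K (-0.93 ± 0.12, adjusted p = 0.017). Fewer gl cells and less gl RNA per cell cannot be told apart here, and their part in the values over all neurons was not tested beyond the values within classes.

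Pdp1 was higher at ZT22 in each neuron class, by different amounts. In Pdf cells it was at 4.67, 8.95, 59.7 and 68.4 TP10K (3.20 ± 0.23, adjusted p = 3.6e-06). In AstA cells, where 546 of 6043 genes were called (9.04%), it was at 77.5, 75.7, 120.3 and 116.4 TP10K (0.53 ± 0.06, adjusted p = 2.7e-06), and in gl cells at 45.3, 53.4, 70.6 and 70.5 TP10K (0.61 ± 0.13, adjusted p = 0.022). In the gated cells without neuron markers it was at 20.7, 19.1, 14.03 and 15.04 TP10K, the reverse order, which did not pass (-0.37, adjusted p = 0.81). The difference between the latter and the neurons was 1.48 on the log2 scale and did not pass either (adjusted p = 0.24). The Pdf cells, 7, 35, 27 and 20 by library, may not be the same neurons at both hours, which cannot be told here. That limit applies to their nrv1 and CG31705 values as well.

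Among gl cells, in which 356 of 6324 genes were called (5.63%), vri was at 4.35, 5.29, 2.15 and 2.13 TP10K and fell, while it did not pass over all neurons (-1.09 ± 0.15, adjusted p = 0.0034). In the same cells Pdp1 had risen, so that the 2 partners moved in opposite directions there. A lower vri level at ZT22 was not particular to gl cells. In the gated cells without neuron markers vri was at 3.54, 2.79, 1.37 and 1.21 TP10K, which did not pass (-1.20, adjusted p = 0.36). CG32369 was at 1.77, 1.98, 11.8 and 15.5 TP10K in gl cells, nrv1 at 0.382, 0.292, 5.10 and 6.38 TP10K, and Dop1R2 at 1.72, 1.58, 7.81 and 6.75 TP10K. Proc was at 9.49, 11.7, 0.775 and 0.905 TP10K (-3.56 ± 0.19, adjusted p = 1.5e-05). Each of these changes was larger than over all neurons, a difference that was not tested for this class, whose own marker was lower at ZT22.

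**Figure D5:**
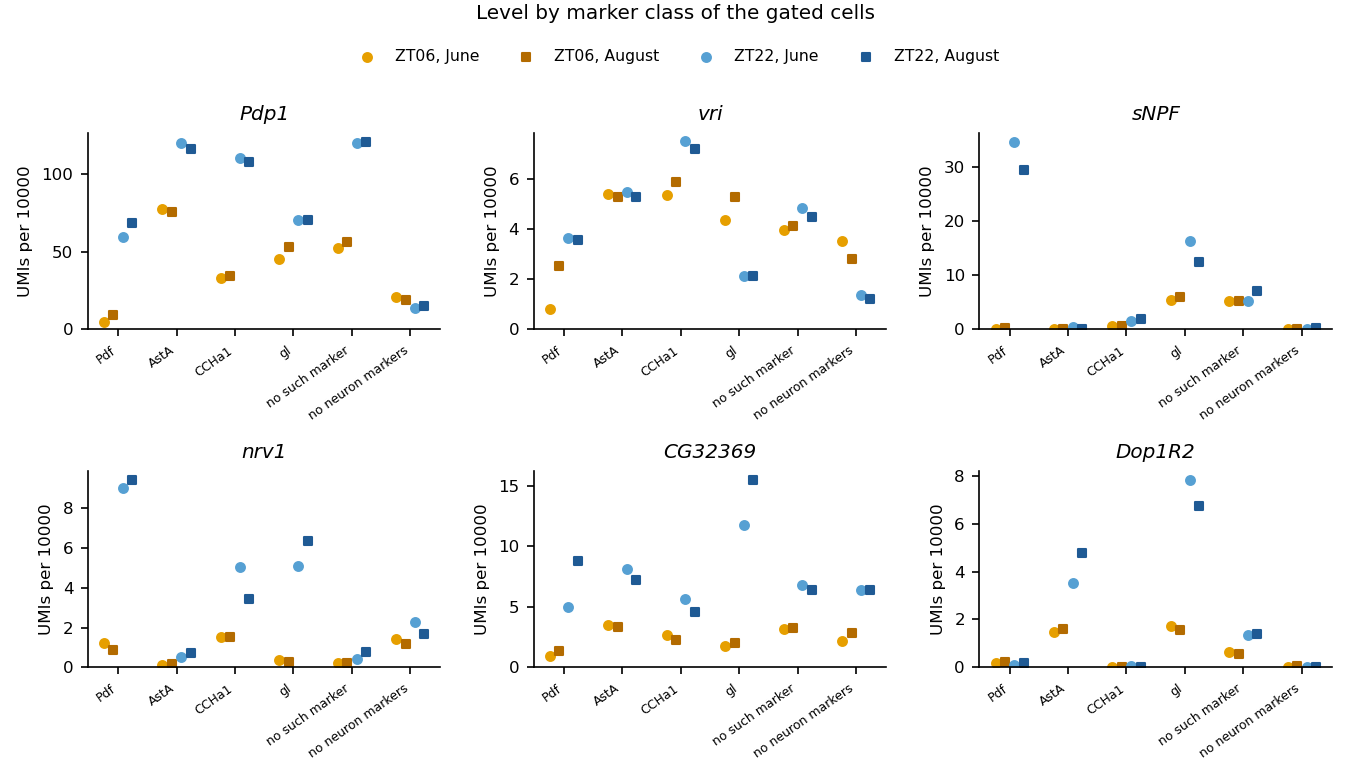
Level of 6 genes in UMIs per 10000 by class of the gated cells, with 1 point per library. The classes are neurons with at least 20 UMIs of Pdf, AstA or CCHa1, with at least 1 UMI of gl, with no such marker, and gated cells without neuron markers. Pdp1 is higher at ZT22 in the 5 neuron classes, vri is lower at ZT22 in gl cells and in gated cells without neuron markers, and sNPF separates the hours most in Pdf cells.

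In Pdf cells, of which there were 7, 35, 27 and 20, 566 of 4657 genes were called (12.2%). PDF is made by the large and small ventral lateral neurons. sNPF was at 0.101, 0.230, 34.5 and 29.4 TP10K in them (7.30 ± 0.28, adjusted p = 6e-08), and Dh31, the diuretic hormone 31 gene, at 59.9, 56.4, 3.41 and 3.08 TP10K (-4.12 ± 0.18, adjusted p = 1.2e-07). The median Pdf cell had 0, 0, 64 and 41 sNPF UMIs and 69, 92, 2 and 2 Dh31 UMIs. At least 3 sNPF UMIs were found in 0 of 42 cells at ZT06 and in 47 of 47 at ZT22. The former allows a share of up to 7.14% of cells with that many UMIs, by counting error alone, and is no limit on cells expressing the gene. The cells had similar depth, with medians of 17416 and 17028 UMIs at ZT06 and ZT22. After each cell was thinned to 5000 UMIs, with 2 ZT22 cells too shallow left out, 8 of 42 ZT06 cells and 45 of 45 ZT22 cells had an sNPF UMI. Among AstA cells, with sNPF at 0.089, 0.133, 0.366 and 0.054 TP10K, the thinned counts were 6 of 110 and 15 of 141. These counts are cells and carry no test.

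Other genes of Pdf cells followed the same division. CG17777 was at 0, 0.049, 22.7 and 15.99 TP10K, and PVRAP at 20.6, 13.2, 0.509 and 0.583 TP10K. The gene fru, a transcription factor of sexually dimorphic circuits, was at 0, 0.181, 5.40 and 7.93 TP10K and Pdfr, the PDF receptor, at 0.203, 0.214, 3.37 and 4.18 TP10K. PVRAP, fru, Pdfr and Dh31 were chosen after their values were seen. At the other hours, cells with at least 3 sNPF UMIs were 42 of 57 at ZT02, 2 of 62 at ZT10, 48 of 86 at ZT14 and 24 of 25 at ZT18. Of these, 42, 2, 41 and 10 also had at least 5 Dh31 UMIs, as did 16 of the 47 at ZT22. The 2 transcripts were thus not exclusive of each other. Whether different Pdf neurons were captured at ZT06 and ZT22, or the same neurons held different transcripts, cannot be told apart in these sums. The test of the difference between Pdf cells and the other neurons called 460 of 8013 genes (5.74%), with 194 to 574 when 1 library was left out, the lowest without the June ZT22 library and 215 without the August ZT22 library. For sNPF the difference was 6.71 ± 0.35 and for Pdp1 2.20 ± 0.24 on the log2 scale.

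The sNPF rise over all neurons drew on Pdf and gl cells. In gl cells sNPF was at 5.41, 5.87, 16.2 and 12.4 TP10K (1.43 ± 0.15, adjusted p = 0.00092). In neurons with no such marker it was at 5.16, 5.28, 5.31 and 7.02 TP10K and did not pass (0.28 ± 0.14, adjusted p = 0.47). Without Pdf cells the change over all neurons was 0.66 (adjusted p = 0.038). Pdp1, CG32369, HDAC4, Dop1R2 and TrissinR passed among the neurons with no such marker, at 1.18, 1.08, 0.92, 1.26 and 1.18 on the log2 scale, in a class where 32 of 7584 genes were called (0.422%).

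The same sort also yielded cells without a single gate UMI, and they served as a comparison within each library. Both classes were defined by gate genes whose own levels differed between the hours. With or without neuron markers, the cells without gate UMIs were shallower than the gated cells, with medians of 3124, 2579, 3503 and 3136 UMIs. A clock neuron of low depth could thus fall into this class, and how many did was not tested. Neurons with 0 gate UMIs numbered 1484, and none of 6846 genes was called among them (0%), with 342 (5%) at an unadjusted p under 0.05. Pdp1 was at 22.9, 21.9, 17.4 and 19.7 TP10K in these cells, below its level in the gated neurons in each library. The change between the hours was compared between gated neurons and these cells by an interaction test. It differed for 4 of 7922 genes among cells of 2000 to 15000 UMIs. Without that limit on depth it differed for 26 of 8247 genes (0.315%), with 695 (8.43%) at an unadjusted p under 0.05. By library left out the count was 59 without June ZT06, 13 without August ZT06, 229 without June ZT22 and 298 without August ZT22.

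Several genes described above were among those that differed in this way. The difference was 1.37 ± 0.10 for Pdp1 (adjusted p = 0.00083), 1.53 ± 0.18 for CG32369, 1.71 ± 0.21 for TrissinR, 2.01 ± 0.19 for Dop1R2, 1.20 ± 0.19 for CG14757, 1.24 ± 0.20 for Pdfr and 1.02 ± 0.16 for HDAC4. It was -1.26 ± 0.17 for Dh31 and -2.58 ± 0.39 for Ldh. For sNPF it was 0.91 ± 0.24 and did not pass (adjusted p = 0.23), nor did nrv1 (2.05 ± 0.38, adjusted p = 0.093). For ple and DAT it was -3.30 ± 0.19 and -4.53 ± 0.41. In the neurons without gate UMIs these 2 genes were higher at ZT22, ple at 2.03, 2.15, 5.33 and 3.44 TP10K and DAT at 2.46, 2.15, 4.85 and 4.21 TP10K. With all sorted cells in both classes in place of neurons only, 3 of 9081 genes differed (0.033%), with 484 (5.33%) at an unadjusted p under 0.05 and 11 to 35 calls when 1 library was left out.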

How the data were processed

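Single cells sorted from adult brains were captured by 10X Chromium droplets. According to the study's methods and the submitters' processing notes, the authors mapped reads to dm6 with Cell Ranger (which runs STAR), counted UMIs over annotated exons, filtered cells by genes, UMIs and mitochondrial share, and removed doublets with Scrublet. No further doublet caller was run. The deposited unit is the count: UMI counts per gene and cell, not normalized, for 17299 genes and 23921 cells. Versions of these tools are not given in the sources used here. The bulk table of the series was not used here.

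Cells with at least 4 UMIs of Clk, per, tim and cwo were summed per library, and library sums were compared by edgeR 4.0.16 (TMM, quasi-likelihood test, genes of at least 20 UMIs over the 4 libraries, Benjamini-Hochberg adjustment over all genes tested, threshold 0.05). The members and gene lists were chosen with earlier results of these data known. Genes were named by a rule: up to 12 rising and 12 falling genes, ranked by fold, that were called at 2-fold or more, had groups that did not overlap and reached a mean of 0.5 TP10K at the higher hour; any listed gene called at 2-fold or more; and 8 genes fixed by name. Tests of a difference between classes name 5 genes each way. Other called members of lists and classes, and the remaining genes called over all gated cells, were named after their values were seen. Neuron markers (at least 10 TP10K for 4 genes) and marker classes were defined after the data were seen. A permutation over 2 against 2 libraries cannot reach p = 0.05, so no such test was run. The fits were tested on simulated data with known changes. Alternatives used DESeq2 1.42.0 and limma 3.58.1 (pseudocount 0.05 TP10K where cells were weighted equally), other gates, filters, normalizations and blocks, and each library left out. Same-numbered libraries did not deviate together from their group means (correlation -0.08 over 3627 genes, -0.17 in neurons over 3180 genes), and only the August pair shares a date by its labels, so the main fit has no block. Gene positions come from the Ensembl annotation of the assembly. CG14757, JhI-21, y, ru, CG31313, cry, Hr38, dnd, CG31199 and CG9812 overlap protein-coding genes on the opposite strand. Reads from the shared bases are assigned by strand only as far as the counting used it.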

Additional observations from a re-analysis of the deposited data

Results flagged for a closer look

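For the genes named here the change between the hours differed between classes of cells by an interaction test. Values are log2 differences of the ZT22 against ZT06 change. A fitted difference depends on the prior count where libraries are at or near 0 UMIs, and is then no bound.

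Between all gated cells and cells without gate UMIs it was 10.2 for Cyp313a1, 7.47 for CG15282 and 7.005 for Drsl5. Cyp313a1 was at 0, 0, 0.001 and 0.479 TP10K in the gated cells and at 3.98, 0.122, 0 and 1.93 TP10K in the others, so the 2 libraries of 1 hour did not agree. Nor did those of ZT22 for the others: a single cell of June ZT22 held 924 of its 958 gated CG15282 UMIs, where August ZT22 had 10, and a single cell of August ZT22 held 3021 of its 3636 gated Drsl5 UMIs, where June ZT22 had 2.

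Between gated neurons and neurons without gate UMIs it was 12.2 for Hug, 6.72 for CG13053, 2.70 for DIP-zeta, 2.31 for Nos and 2.01 for Dop1R2. In the other direction it was -17.6 for CG14331, -9.57 for CG12239, -5.81 for ITP, -4.53 for DAT and -3.63 for Strn-Mlck. Hug, the hugin peptide gene, was at 0.054, 0.026, 0.124 and 3.64 TP10K in the gated neurons and at 57.5, 18.8, 0.239 and 0.018 TP10K in the others, and 1 gated neuron of August ZT22 held 2339 of that library's 2353 UMIs. In the August ZT06 library 1 gated neuron held 60 of 64 UMIs of CG14331 and 1 held 6870 of 6990 UMIs of CG12239. ITP, the ion transport peptide gene, was at 7.52, 0.218, 0.018 and 0.008 TP10K in the gated neurons, and 1 neuron held 2792 of the 2811 UMIs of June ZT06. Nos, nitric oxide synthase, was at 0.367, 0.532, 0.900 and 1.03 TP10K in the gated neurons and at 0.538, 0.723, 0.348 and 0.196 TP10K in the others, with the groups apart in both classes and in opposite order.

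Between gated neurons with and without 20 Pdf UMIs it was 13.8 for CG13950, 12.4 for CG15082, 11.98 for sdk, 10.1 for MESR3 and 9.57 for GEFmeso. It was -9.85 for pdm3, -9.74 for dati, -9.35 for CG15784, -7.36 for CG14401 and -5.92 for CG10479. The cell adhesion gene sdk was at 0, 0, 1.08 and 1.101 TP10K in Pdf cells and at 0.536, 0.534, 0.486 and 0.419 TP10K in the other neurons.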

How the results depend on the processing

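Over all gated cells the 18 calls became 388 with DESeq2 (275 higher, 113 lower), 36 with limma, 154 with no filter, 34 with filterByExpr, 30 with cells weighted equally and 17 without TMM. Fits with all 10 libraries gave 0 calls (754 at an unadjusted p under 0.05). The replicate block of June and August gave 2 calls, all 10 libraries with a replicate block of collection date 94, and the crossed pairing, chosen after seeing the data, 33. Gates of 2 and 8 UMIs gave 7 and 262, a gate of 5 TP10K 68, a gate of 2 UMIs of Clk and cwo 7, and no gate 0 (909 unadjusted). A maximum of 15000 UMIs gave 3, gl cells 341, cells without gl 7, cells without Pdf 0 (1175 unadjusted), neurons 303 and the remaining gated cells 0. Leaving out 1 library gave 4 to 22. In neurons, the 303 calls became 658 with no filter, 1 with all 10 libraries, 22 under the replicate block of June and August, 84 with all 10 libraries and a replicate block of collection date, 646 under the crossed pairing and 187 at a gate of 2 UMIs. Cells weighted equally gave 331 there, of which 184 were higher at ZT22. Leaving out 1 library gave 202 to 427.

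The 3 differences from cells without gate UMIs became 7 with cells of at most 1 gate UMI in the second class, 0 with filterByExpr (467 unadjusted) and 11 to 35 without 1 library. The 26 in neurons became 16, 4 in cells of 2000 to 15000 UMIs, 10 with filterByExpr and 13 to 298 without 1 library. The 460 for Pdf cells became 194 to 574. Directions turned for Pdp1 (-0.37), HDAC4 (-0.052) and JhI-21 (0.086) in gated cells without neuron markers, and for CG7191 (-1.58) and vri (-1.10) in gl neurons. The cause was not tested. Each hour has 2 libraries, and genes under 20 UMIs in all were not tested.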
